A study of Mus musculus with 58 samples.

Results

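The loci of 5 pluripotency factor genes, Pou5f1, Sox2, Nanog, Klf4 and Esrrb, were examined in 9 chromatin immunoprecipitation sequencing (ChIP-seq) peak lists of tagged RNA-binding proteins from mouse embryonic stem cells. A locus was the gene plus about 10 kb on each side in the mm9 assembly, and a peak belonged to it when the peak shared at least 1 bp with that window. The 5 windows held 69 of the 156215 peaks in the 9 lists. The genes were chosen for their role in pluripotency, but with earlier results of these data known.

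The series holds 58 samples, of which 9 came with peaks and the other 49 were not analysed here. All 9 samples were untreated embryonic stem cells labelled as strain 129/Ola, and every immunoprecipitation used 5 µg of FLAG antibody. The AID-FB(KI)-PSPC1 cells, built from the CJ9 line, carried the tag on endogenous PSPC1 (knock-in) and gave 2 libraries from chromatin fixed with 3% formaldehyde. The FB(OE) cells, built from the BirA J1 line, overexpressed a tagged protein and gave 1 library each. Chromatin of FB(OE)-PSPC1 was fixed with 1% formaldehyde, and that of FB(OE)-UTP6, FB(OE)-UTP3 and FB(OE)-CIRH1A with 3%. Chromatin of FB(OE)-hnRNPU, FB(OE)-SAFB and FB(OE)-SAFB2 was fixed with 2 mM DSP, a protein crosslinker, followed by 1% formaldehyde, and was also purified on streptavidin. The labels do not say whether the knock-in libraries came from separate cultures, whether a line was a single clone, or how the tagged transgenes were driven. No peak list of untagged cells was used here, so the background of the FLAG antibody at these loci is unknown.

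PSPC1 is a paraspeckle protein that binds RNA, hnRNPU, SAFB and SAFB2 are nuclear matrix proteins that bind RNA and chromatin, and UTP3, UTP6 and CIRH1A belong to the small-subunit processome that assembles ribosomes. Oct4 (encoded by Pou5f1), Sox2 and Nanog form the core of the transcription network that holds embryonic stem cells in the pluripotent state, and Klf4 and Esrrb are partner factors that bind many of the same enhancers. These factors also act on their own genes, through promoters and through enhancers that can lie far from the gene. All 5 genes are transcribed in embryonic stem cells, and the lists hold no expression values with which to check the cell type.

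Tagged PSPC1 had a peak at all 5 loci in knock-in replicate 1 and in the overexpression list, and at Pou5f1, Klf4 and Esrrb in knock-in replicate 2. UTP6 also had a peak at all 5 loci, but mostly low in its list of 40217: with the best 50% of each list it had one at 3 loci, and with the 6670 highest peaks at 1, Nanog. UTP3 and CIRH1A had peaks at Nanog and Esrrb, hnRNPU at Pou5f1 and Esrrb, and SAFB at Klf4. With the best 50% of each list UTP3, CIRH1A and SAFB had no peak at any of the 5 loci. SAFB2 had no peak in any of the 5 windows. Of the 45 pairs of a locus and a list, 25 had a peak and 20 had none, and 9 of the 10 pairs with SAFB or SAFB2 were among those without. Outside PSPC1 each protein had 1 list, fixation and parental line differ between the proteins, and depth is unknown, so no difference between proteins was tested.

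The 4 shorter windows, Pou5f1, Sox2, Nanog and Klf4, measure 23 to 28 kb, and the share of all 101466 tiles of 26 kb on chromosomes 1 to 19 and X that hold a peak gives their background. A peak was present in 4 of the 4 shorter windows in knock-in replicate 1, where 13.6% of tiles had one. Knock-in replicate 2 had a peak in 2 of the 4 against 16.2% of tiles, and overexpressed PSPC1 in 4 of the 4 against 16.3%. PSPC1 peaks were thus found at Pou5f1 and Klf4 in all 3 PSPC1 lists and at Sox2 and Nanog in 2 of them. UTP6, which has the longest list, had a peak in 4 of the 4 shorter windows against 30.3% of tiles. UTP3 had a peak in 1 of the 4 against 13% of tiles, CIRH1A in 1 against 8.77%, hnRNPU in 1 against 9.59% and SAFB in 1 against 10.1%. SAFB2 had none against 6.36%. For the last 5 proteins these counts of 0 or 1 of 4 are too small to set apart from the tile shares. The same holds for the 2 of 4 of knock-in replicate 2. For the other lists, too, 4 windows allow no test. When only tiles with a peak in at least 1 list were taken as the base, the shares rose to 33.7% for knock-in replicate 1, 40.3% for knock-in replicate 2, 40.6% for overexpressed PSPC1 and 75.4% for UTP6. On that base the 4 of 4 of UTP6 cannot be set apart from its tile share either.

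**Figure D1:**
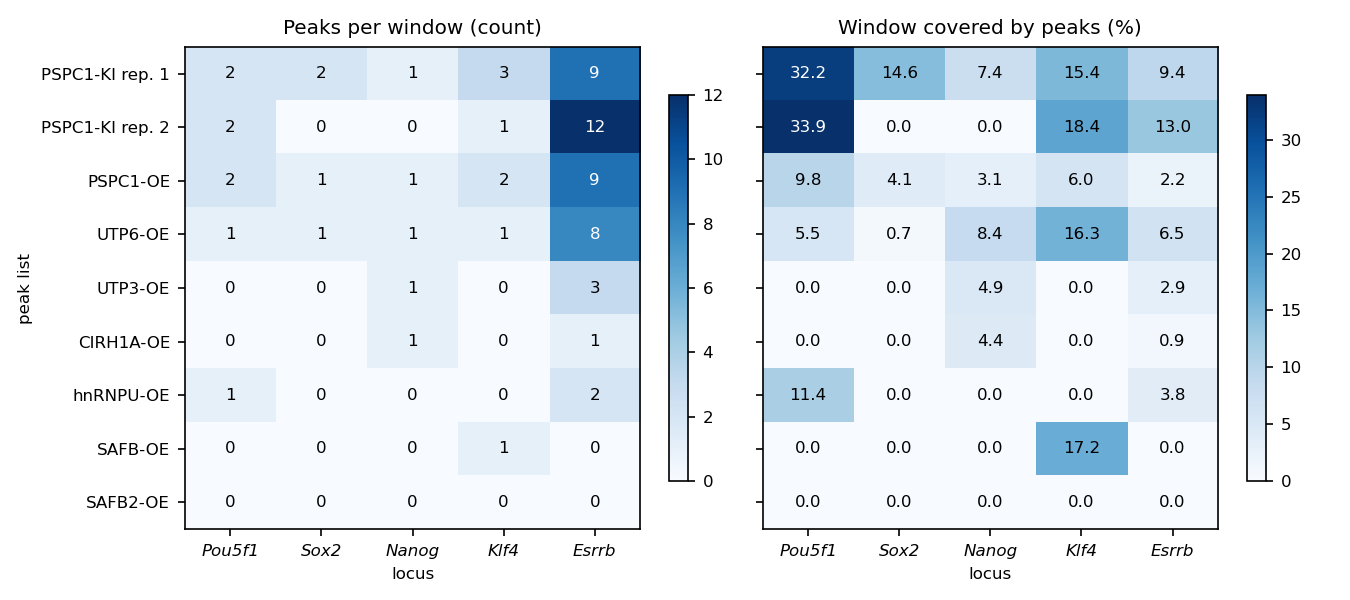
Peaks of the 9 lists (rows) at the 5 loci (columns). The left panel gives the number of peaks per window and the right panel the percentage of the window that peaks cover. Counts are highest at Esrrb, whose window is 181 kb long, and coverage is highest at Pou5f1 in the knock-in lists, at 32.2% and 33.9%.

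The promoters are shown because PSPC1 peaks lay over the first starts of Pou5f1, Sox2 and Klf4, and not over those of Nanog and Esrrb. At Sox2 this excludes knock-in replicate 2, which had no peak there. At Klf4 it excludes overexpressed PSPC1, whose nearest peak began 0.236 kb into the gene from the start as approximated below. The split holds for first starts only, since PSPC1 peaks lay at about the distance of the second Esrrb start, 60.5 kb after the first. The lines give the 250 bases before each start in the RefSeq annotation of GRCm38.p6, read 5′ to 3′ on the strand of the gene. Capitals mark GGGCGG or its reverse complement CCGCCC, a GC box that binds factors of the Sp and Klf family. GRCm38 is not the assembly of the peak lists, and its coordinates were not carried over. The Pou5f1 sequence is chr17:35505782-35506031 (plus strand), Sox2 is chr3:34649745-34649994 (plus) and Klf4 is chr4:55532476-55532725 (minus). The Nanog sequence is chr6:122707239-122707488 (plus), and the Esrrb sequences are chr12:86360867-86361116 and chr12:86421394-86421643 (both plus).
Pou5f1: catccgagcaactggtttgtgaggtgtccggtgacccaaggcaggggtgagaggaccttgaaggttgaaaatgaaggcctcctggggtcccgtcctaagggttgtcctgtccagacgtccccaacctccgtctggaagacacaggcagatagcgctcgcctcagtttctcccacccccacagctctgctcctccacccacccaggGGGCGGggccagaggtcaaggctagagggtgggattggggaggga
Sox2: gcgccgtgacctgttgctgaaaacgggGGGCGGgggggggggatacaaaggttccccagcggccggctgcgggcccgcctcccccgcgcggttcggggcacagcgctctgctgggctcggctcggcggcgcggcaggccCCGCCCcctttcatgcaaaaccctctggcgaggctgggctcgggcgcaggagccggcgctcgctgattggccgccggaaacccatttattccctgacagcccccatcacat
Klf4: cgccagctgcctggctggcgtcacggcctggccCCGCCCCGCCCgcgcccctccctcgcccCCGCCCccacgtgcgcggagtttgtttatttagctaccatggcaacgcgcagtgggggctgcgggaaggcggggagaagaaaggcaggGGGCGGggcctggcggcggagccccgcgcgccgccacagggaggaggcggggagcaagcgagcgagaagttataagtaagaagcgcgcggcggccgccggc
Nanog: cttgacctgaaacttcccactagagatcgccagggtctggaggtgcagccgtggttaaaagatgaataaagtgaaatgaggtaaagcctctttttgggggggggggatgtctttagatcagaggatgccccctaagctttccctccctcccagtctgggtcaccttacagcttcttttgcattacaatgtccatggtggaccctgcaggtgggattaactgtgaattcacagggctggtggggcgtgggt
Esrrb, first start: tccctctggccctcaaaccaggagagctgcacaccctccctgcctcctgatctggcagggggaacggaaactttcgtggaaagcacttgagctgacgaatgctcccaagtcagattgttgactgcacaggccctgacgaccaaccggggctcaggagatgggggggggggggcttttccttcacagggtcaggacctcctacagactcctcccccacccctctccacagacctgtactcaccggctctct
Esrrb, second start: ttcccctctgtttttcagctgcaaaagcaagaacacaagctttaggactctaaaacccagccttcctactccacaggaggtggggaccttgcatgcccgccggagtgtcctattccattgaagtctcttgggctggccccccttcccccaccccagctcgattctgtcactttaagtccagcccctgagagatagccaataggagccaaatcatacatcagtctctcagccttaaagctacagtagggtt

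At the first RefSeq start of each gene, the promoters of Klf4, Sox2 and Pou5f1 held the GC box and those of Nanog and Esrrb did not. The second starts that RefSeq lists for Pou5f1, Nanog and Esrrb had no GC box, so at Pou5f1 the match depends on the start taken. Klf4 had 4 matches, 2 of which share a base, Sox2 had 2 and Pou5f1 had 1. The GC box was present in 32.7% of all 32841 RefSeq promoters of this length. At the first starts G and C made up 74% of the bases at Klf4, 72% at Sox2, 62% at Pou5f1, 60.8% at the first Esrrb start and 52% at Nanog, where the median promoter had 52.4%. At the second starts the share was 45.6% at Pou5f1, 57.6% at Nanog and 52% at Esrrb, so the order of the genes also depends on the start. CG dinucleotides numbered 32 at Klf4 and 27 at Sox2, against 8 at Pou5f1, 6 at the first Esrrb start and 3 at Nanog, with a median of 6 over all promoters. Only the Klf4 and Sox2 promoters were thus well above the median in CG dinucleotides. Another 4 motifs were searched on both strands, and none of them divided the genes as the GC box did. ATGCAA, part of the octamer that Oct4 binds, was found at Sox2, at both Nanog starts and at the second Esrrb start (9.46% of all promoters). The Sox core ACAAT was found at the second Pou5f1 start, both Nanog starts and the first Esrrb start (27.7% of all promoters). AGGTCA, part of the nuclear receptor site that Esrrb can bind, was found at the first starts of Pou5f1, Sox2 and Nanog (14% of all promoters). The Klf core CACCC had 5 matches at the first Pou5f1 start, 3 at the second Nanog start, 2 and 1 at the Esrrb starts and none at Klf4 or Sox2 (52% of all promoters). The searches were made after the peaks had been seen, a match describes letters and not a bound site, and 5 genes allow no test.

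The start of each gene in mm9 was approximated by taking 10 kb off the window, and the remaining length differed from the RefSeq gene length by 254 to 855 bp. Distances below are from that approximate start along the gene, negative upstream. A peak that came within 1 kb of the approximate start was found at Klf4 in 5 lists, at Pou5f1 in 3 and at Sox2 in 2, and at Nanog and Esrrb in none. The share of all gene starts with such a peak is unknown, because no mm9 annotation was used here. These counts therefore do not show that the 5 genes differ from other genes. Among the lists that reached these starts, PSPC1 did so at Pou5f1, Sox2 and Klf4 in knock-in replicate 1 and in the overexpression list, and at Pou5f1 and Klf4 in knock-in replicate 2. UTP6 and SAFB reached only the start of Klf4.

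**Figure D2:**
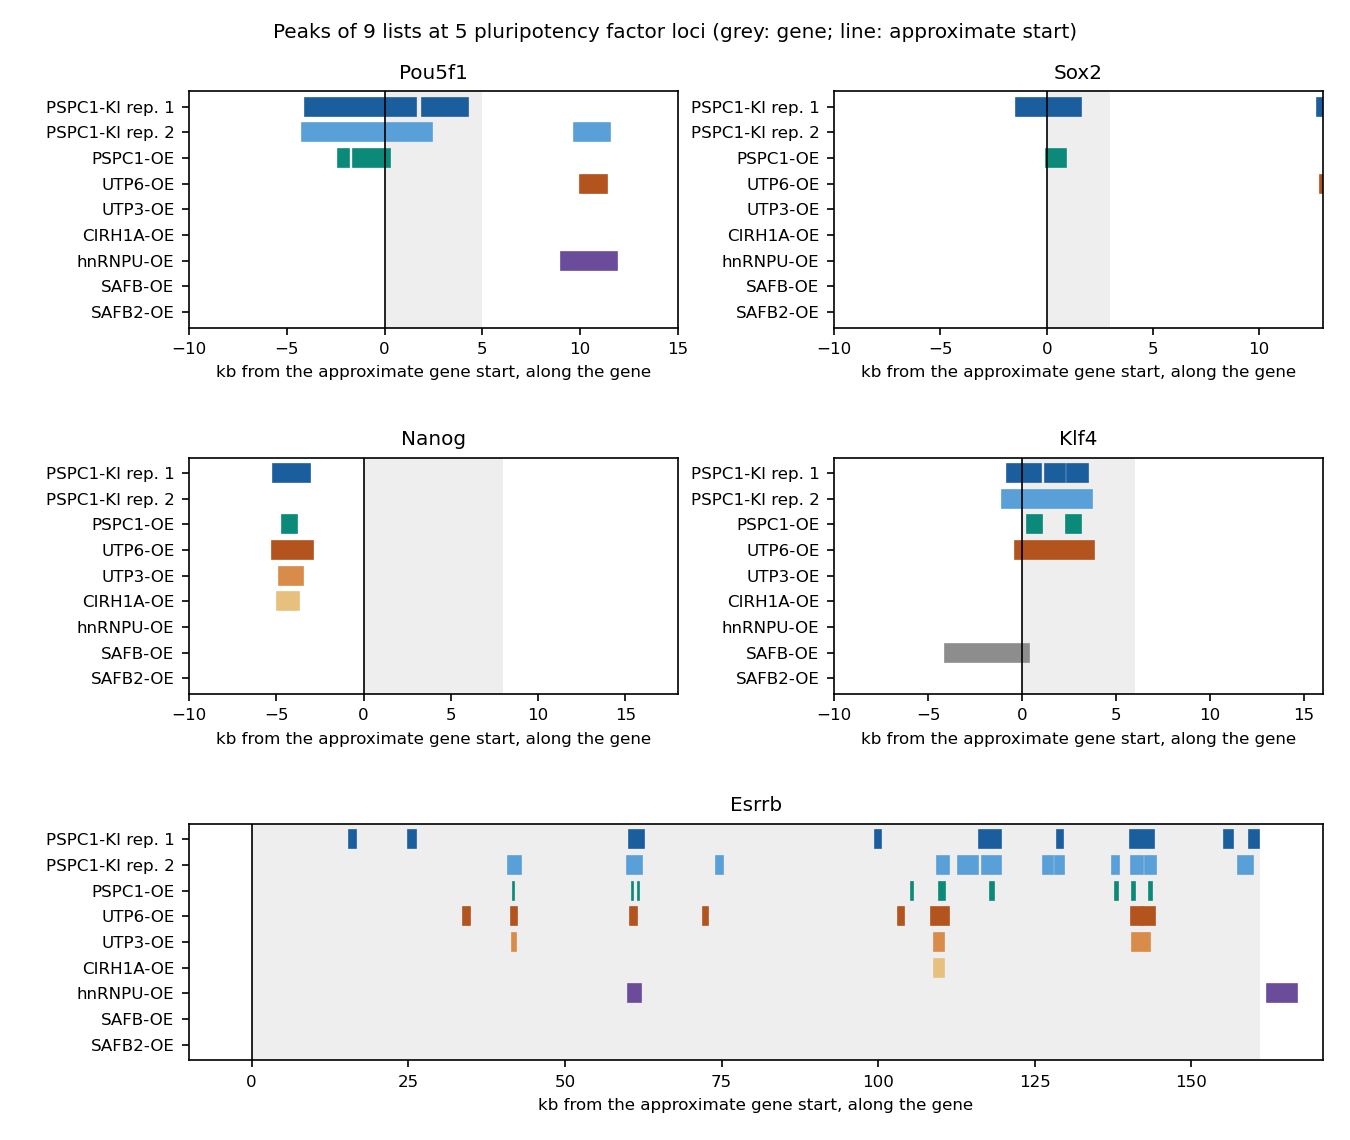
Position of every peak in the 5 windows, 1 panel per gene and 1 row per list, in kb from the approximate gene start along the gene (grey, gene; vertical line, start). Bars span each peak to scale, with a thin outline of the same colour. PSPC1 bars cross the start at Pou5f1 in every PSPC1 list and at Klf4 in the knock-in lists. At Sox2 they do so in knock-in replicate 1 and overexpressed PSPC1. All Nanog bars lie upstream, and the Esrrb bars lie inside the gene except 1 of hnRNPU.

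At Pou5f1 the peaks fell into 2 regions: the 3 PSPC1 lists around the start, and UTP6, hnRNPU and knock-in replicate 2 of PSPC1 downstream of the gene. The start region, chr17:35638788-35647268 in mm9, was found in the 3 PSPC1 lists only. Its highest peak in knock-in replicate 1 ran from -4.08 to 1.63 kb, 5716 bp wide, with a score of 325.82, rank 1649 of 18455. In knock-in replicate 2 it ran from -4.21 to 2.45 kb, 6663 bp wide, with a score of 746.18, rank 853 of 22926. Overexpressed PSPC1 had its highest peak at this locus from -1.59 to 0.295 kb, 1886 bp wide, with a score of 533.1, rank 643 of 22785. These 3 peaks stood within the best 8.94%, 3.72% and 2.82% of their lists by score, and each was the best ranked of its list among the peaks of the 5 loci. The knock-in peaks contained the whole of the peak of overexpressed PSPC1.

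The score is the authors' own value per peak, with no stated unit, and served only to rank peaks within a list. Knock-in peaks covered 8265 ± 310 bp (SD, n = 2 libraries) of the 25 kb Pou5f1 window, with 2 peaks in each library. That is 32.2% and 33.9% of the window, against 9.81% for overexpressed PSPC1, whose list has a median peak width of 326 bp where the knock-in lists have 1500 and 1419 bp. The difference in coverage between tagged endogenous and overexpressed PSPC1 goes with fixation, parental line and peak width, and these cannot be told apart. A second, low peak of knock-in replicate 1 ran from 1.94 to 4.27 kb with a score of 34.62. RefSeq lists a second Pou5f1 start 2.78 kb after the first, within that range of distances.

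The downstream Pou5f1 region, chr17:35652052-35654904, spanned 9.05 to 11.9 kb from the start, beyond the end of the gene. hnRNPU had a peak of 2853 bp there, with a score of 73.4, rank 4540 of 10279. UTP6 had a peak of 1376 bp with a score of 80.15, rank 27708 of 40217, and knock-in replicate 2 had a peak of 1821 bp with a score of 37.98, rank 17385 of 22926. In all 3 lists this region ranked in the middle or the lower part, unlike the PSPC1 peaks over the start. RefSeq places Tcf19, Cchcr1 and the non-coding Gm32362 within 10 kb of Pou5f1 in GRCm38, so peaks in this window are not assigned to Pou5f1. UTP3, CIRH1A, SAFB and SAFB2 had no peak at the Pou5f1 locus.

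At Sox2 the peaks again fell into a start region with PSPC1 and a region downstream of the gene. The start region, chr3:34547567-34550635, had a peak in knock-in replicate 1 and in overexpressed PSPC1, and none in knock-in replicate 2. The knock-in replicate 1 peak ran from -1.43 to 1.64 kb, 3069 bp wide, with a score of 87.76, rank 5334 of 18455. The peak of overexpressed PSPC1 ran from -0.031 to 0.907 kb, 939 bp wide, with a score of 129.82, rank 6902 of 22785. These ranks, 28.9% and 30.3% of the lists, were lower than those at the Pou5f1 start. Because knock-in replicate 2 had no peak in the Sox2 window, the 2 knock-in libraries differ here and PSPC1 at the Sox2 start rests on 1 knock-in library and 1 overexpression library.

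The downstream Sox2 region, chr3:34561716-34565402, began 12.7 kb from the start and ran past the edge of the window to 16.4 kb. The best Sox2 peak of knock-in replicate 1 lay there, with a score of 173.11, rank 2778 of 18455. UTP6 had a score of 68.62, rank 31618 of 40217. The merged region also contained peaks of knock-in replicate 2 and of overexpressed PSPC1 that lie outside the window, so 4 lists had a peak in it. With 10 kb more on each side both knock-in libraries had 2 peaks at Sox2. The non-coding RNA gene Sox2ot overlaps Sox2 in GRCm38, so the whole Sox2 window may also be counted to Sox2ot. UTP3, CIRH1A, hnRNPU, SAFB and SAFB2 had no peak at Sox2.

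At Nanog, 5 lists had 1 peak each, and all 5 peaks lay in a single upstream region, chr6:122651770-122654112, from -5.23 to -2.89 kb. Nanog is known to have an enhancer a few kilobases upstream of its start, and whether this region is that enhancer was not tested. The region ranked high for UTP6, with a score of 227.91, rank 6115 of 40217, and for overexpressed PSPC1, with a score of 212.68, rank 3214 of 22785. These are the best 15.2% and 14.1% of the lists, and the UTP6 peak was the best ranked of UTP6 at any of the 5 loci. UTP3 had a score of 81.89, rank 7695 of 14562, and CIRH1A a score of 66.67, rank 6330 of 9689. For both these ribosome assembly proteins the Nanog peak was the best ranked of the 5 loci, though in the lower part of their lists.

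Of the 2 knock-in libraries, 1 had a peak at Nanog. The peak of replicate 1 was 2083 bp wide with a score of 30.77, rank 17867 of 18455, close to the lowest score of that list, 30. Knock-in replicate 2 had no peak in the window, and had 2 when the window was widened by 10 kb on each side. With the minimum of 50 that the other 7 lists show applied to the knock-in lists too, no knock-in peak was left at Nanog. No list had a peak over the Nanog start or within the gene, and hnRNPU, SAFB and SAFB2 had none in the window.

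At Klf4 the peaks of 5 lists merged into a single region over the start and the first part of the gene, chr4:55542168-55550090, from -4.09 to 3.83 kb. Knock-in replicate 1 had 3 peaks in it, with scores of 82.25, 49.36 and 46.61, the highest from -0.814 to 0.99 kb and of rank 5701 of 18455. Knock-in replicate 2 had a single peak of 4787 bp from -1.1 to 3.69 kb, with a score of 169.36, rank 3214 of 22926. Overexpressed PSPC1 had 2 peaks, of 794 bp from 0.236 to 1.03 kb with a score of 223.59, rank 2939 of 22785, and of 774 bp further into the gene with a score of 72.28. The single peak of knock-in replicate 2 thus spanned the positions that the other PSPC1 lists split into 2 or 3 peaks. Covered length was 4396 ± 553 bp in the knock-in libraries (SD, n = 2), with 3 peaks in the first and 1 in the second, so coverage was closer between libraries than the number of peaks.

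Klf4 was the only locus of the 5 where UTP6 had a peak over the start and the only locus with a SAFB peak. The UTP6 peak ran from -0.404 to 3.83 kb, 4237 bp wide, with a score of 139.13, rank 15216 of 40217. The SAFB peak ran from -4.09 to 0.37 kb, 4461 bp wide, with a score of 61.86, rank 7504 of 10632. The UTP6 peak lay mostly within the gene and the SAFB peak mostly upstream of it. SAFB2, UTP3, CIRH1A and hnRNPU had no peak at Klf4. The SAFB peak stands in the lower part of its list and rests on 1 library.

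Esrrb held 44 of the 69 peaks, of which 43 lay within the gene and 1, of hnRNPU, downstream. No list had a peak within 1 kb of the approximate Esrrb start, and the first peak began 15.6 kb into the gene. Its window is 181 kb long, so the count per length is set beside the other genes: Esrrb had 0.243 peaks per kb over all 9 lists, between Pou5f1 with 0.32 and Klf4 with 0.308 on the higher side and Nanog with 0.179 and Sox2 with 0.174 on the lower. Per length, Esrrb thus stood within the range of the other 4 genes. The knock-in libraries had 9 and 12 peaks, a mean of 10.5 ± 2.12 (SD, n = 2), and covered 20271 ± 4715 bp.

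Set beside the 14567 tiles of 181 kb, the PSPC1 lists had more peaks at Esrrb than most tiles. Knock-in replicate 1 had 9 peaks where the mean tile had 1.27, knock-in replicate 2 had 12 against 1.58, and overexpressed PSPC1 had 9 against 1.54. At least as many peaks were found in 2.32%, 1.68% and 1.7% of tiles, and at least 1 peak in 44.8%, 49.6% and 55.7%. UTP6 had 8 peaks against a mean of 2.76, a count reached by 8.32% of tiles, and 77.4% of tiles had a UTP6 peak. UTP3 had 3 peaks against 0.994, a count reached by 11.5% of tiles, and 50.7% had a peak. The hnRNPU list had 2 peaks, a count reached by 17.4% of tiles, with 42.7% holding a peak, and CIRH1A had 1 peak, as many as 37.4% of tiles have or exceed. SAFB and SAFB2 had none, where 46.9% and 33.8% of tiles had a peak. The share of tiles that reached the Esrrb count was thus lowest in the 3 PSPC1 lists, and differences between lists were not tested. Among tiles with a peak in at least 1 list, 52.3%, 57.8% and 64.9% had a peak of these 3 lists. Tiles around other transcribed genes were not set apart, so these counts do not show that Esrrb differs from such genes. With a minimum score of 50 in the knock-in lists, replicate 1 had 4 Esrrb peaks, reached by 4.43% of tiles, and replicate 2 had 9, reached by 0.995%.

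**Figure D3:**
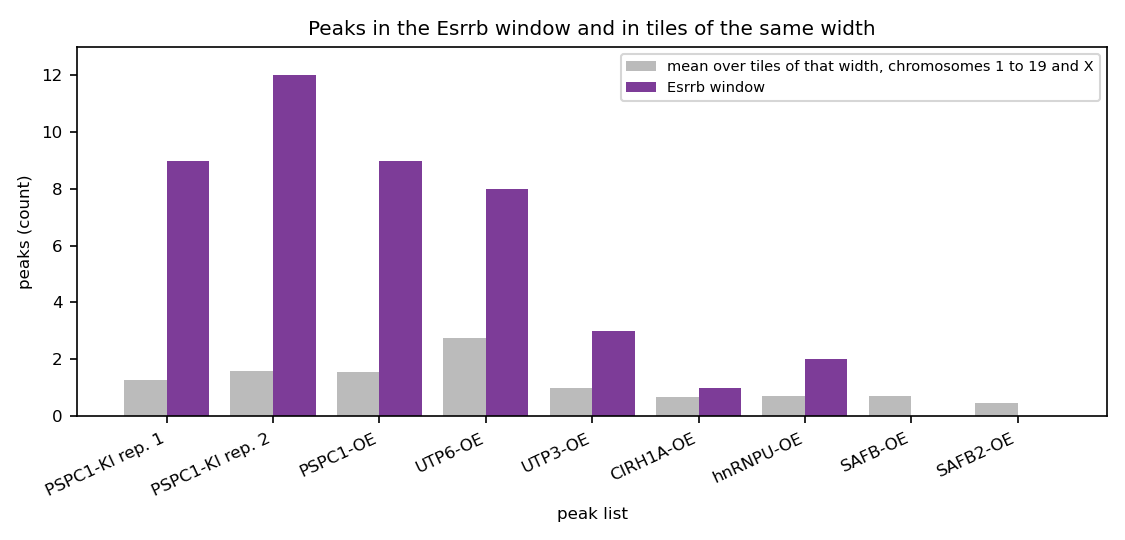
Number of peaks in the 181 kb Esrrb window (purple) and mean number over 14567 tiles of the same width on chromosomes 1 to 19 and X (grey), for each of the 9 lists. The purple bar reaches 9, 12 and 9 in the PSPC1 lists, where the grey bar stands at 1.27, 1.58 and 1.54, and SAFB and SAFB2 have no purple bar.

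The Esrrb peaks merged into 20 regions, of which 12 came from a single list, where 51.3% of all regions on all chromosomes did. Peaks of at least 4 lists were held by 4 of the 20, where 20.6% of all regions did. Both counts are near those shares. The region at 108 to 111 kb, chr12:87810412-87813276, was found in 5 lists: knock-in replicate 2, overexpressed PSPC1, UTP6, UTP3 and CIRH1A. Overexpressed PSPC1 ranked it highest, with a score of 237.94, rank 2647 of 22785, against 87.02 in knock-in replicate 2, 75.37 in UTP6, 54.88 in CIRH1A and 50.56 in UTP3. This was the only Esrrb peak of CIRH1A. The region at 140 to 144 kb, chr12:87842255-87846375, held peaks of the 3 PSPC1 lists, UTP6 and UTP3. Its highest scores were 143.5 in knock-in replicate 1, 139.36 in knock-in replicate 2, 140.68 in overexpressed PSPC1, 83.03 in UTP6 and 65.37 in UTP3. The region at 40.9 to 43 kb, chr12:87742916-87745048, held peaks of knock-in replicate 2, overexpressed PSPC1, UTP6 and UTP3, with scores of 31.75, 54.53, 106.53 and 57.19. All 3 UTP3 peaks at Esrrb fell within regions that UTP6 and PSPC1 shared.

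The region at 60 to 62.7 kb, chr12:87761972-87764679, was the only Esrrb region with hnRNPU beside PSPC1 and UTP6. hnRNPU had a score of 101.65 there, rank 2061 of 10279, its best ranked peak at the 5 loci. Knock-in replicate 1 had a score of 127.06, rank 3688 of 18455, and knock-in replicate 2 a score of 52.45, rank 11778 of 22926. Overexpressed PSPC1 had 2 narrow peaks in it, with scores of 57.87 and 53.38, and UTP6 had 73.66. RefSeq lists a second Esrrb start 60.5 kb after the first in GRCm38, a distance that lies within this range. The 250 bases before that second start, printed above, hold no GC box and 3 CG dinucleotides. The distances come from different assemblies, so the overlap of the region with the second start was not tested.

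The best ranked PSPC1 peaks at Esrrb lay at 116 to 120 kb, chr12:87818152-87821660, a region with no peak of the other 6 lists. There the score was 165.34 in knock-in replicate 1, rank 2882 of 18455. Knock-in replicate 2 had a score of 308.31, rank 1806 of 22926, and overexpressed PSPC1 a score of 412.62, rank 1036 of 22785. The region thus stood within the best 15.6%, 7.88% and 4.55% of the 3 lists. It and the Pou5f1 start region were the only 2 of the 26 merged regions in the windows where all 3 PSPC1 lists had peaks and the other 6 lists had none, a pattern of 1.02% of the 67384 regions on all chromosomes. A count of 2 is too small to set apart from that share. Another hnRNPU peak, with a score of 52.63, lay just past the end of Esrrb at 162 to 167 kb, where RefSeq has the non-coding Gm40483 within 10 kb.

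**Figure D4:**
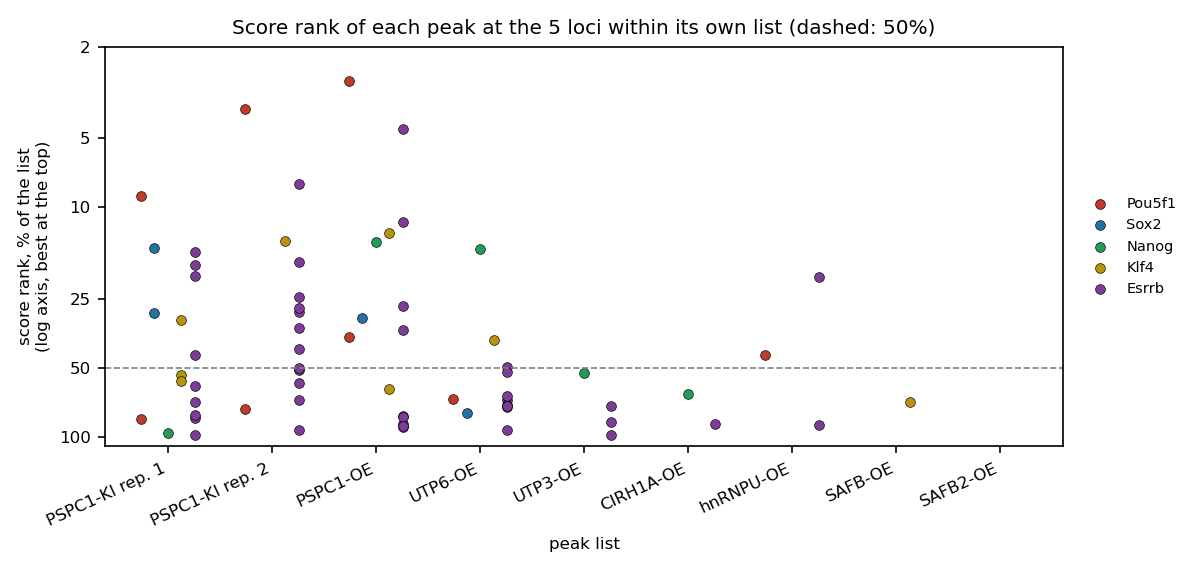
Score rank of every window peak within its own list, as a percentage of the list on a log axis with the best rank at the top, for the 9 lists (coloured by gene; dashed line, 50%). Within each of the 3 PSPC1 lists the best rank is a Pou5f1 peak, at 8.94%, 3.72% and 2.82%, and the UTP3 and CIRH1A points lie below the dashed line.

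By rank, the peaks at these loci pooled over the 9 lists were not drawn from the top, and the lists differed. Of the 69 peaks, 17 (24.6%) stood in the best 25% of their list by score. The 3 PSPC1 lists contributed 5 each, of 17 peaks in knock-in replicate 1, 15 in replicate 2 and 15 in overexpressed PSPC1. UTP6 contributed 1 of 12, at Nanog, and hnRNPU 1 of 3, at Esrrb. The median rank was 53.8% in knock-in replicate 1 (range 8.94% to 98.2%), 33.8% in knock-in replicate 2 (3.72% to 93.2%) and 34.4% in overexpressed PSPC1 (2.82% to 90.9%). It was 69.1% in UTP6, 79.6% in UTP3, 76.7% in CIRH1A and 44.2% in hnRNPU. Strong peaks in the PSPC1 lists stood beside many weak ones at the same genes.

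The 5 windows were denser in PSPC1 peaks than the chromosomes as a whole, stretches without genes included. The density around other transcribed genes was not compared, so the ratios do not show that these 5 genes differ from other genes. Per Mb, knock-in replicate 1 had 60.1 peaks in the windows against 6.94 on chromosomes 1 to 19 and X, a ratio of 8.66. The ratio was 6.14 in knock-in replicate 2 and 6.23 in overexpressed PSPC1. It was 2.8 for UTP6, 2.59 for UTP3, 2.74 for hnRNPU and 1.95 for CIRH1A, and 0.892 for SAFB, whose single peak gives no precision. The PSPC1 lists thus had the highest ratios of the 9. Esrrb weighs most in these ratios, in peaks (44 of 69) and in window length (181 of 283 kb) alike.

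The 2 knock-in libraries shared part of their peaks at these loci. Of the 17 window peaks of knock-in replicate 1, 11 (64.7%, Wilson 95% interval 41.3% to 82.7%) shared at least 1 bp with a peak of replicate 2, where 58.8% of its whole list did. Of the 15 of replicate 2, 8 (53.3%, interval 30.1% to 75.2%) were shared with replicate 1, against 48.3% of the whole list. The intervals describe counting error alone, because peaks of a library do not replicate it, and they include the shares of the whole lists. By gene, the shared peaks of replicate 1 were 2 of 2 at Pou5f1, 1 of 2 at Sox2, 0 of 1 at Nanog, 3 of 3 at Klf4 and 5 of 9 at Esrrb. Shared peaks had the higher scores: a median of 82.25 against 37.2 for unshared peaks in replicate 1, and 114.75 against 47.29 in replicate 2. The unshared peaks of replicate 1 at Nanog and Esrrb scored 30.41 to 44.8, at 98.2% to 60.4% of its list by rank, while its unshared Sox2 start peak scored 87.76.

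Peaks of overexpressed PSPC1 at these loci mostly had a knock-in counterpart. Of its 15 window peaks, 12 (80%, interval 54.8% to 93%) shared a base with knock-in replicate 2, against 49.3% of its whole list, and 11 (73.3%, interval 48% to 89.1%) with knock-in replicate 1, against 40.6%. In the other direction, 9 of 17 (52.9%) peaks of knock-in replicate 1 and 9 of 15 (60%) of replicate 2 were shared with overexpressed PSPC1, against 40.2% and 40.4% of the whole lists. With UTP6, 7 of 17 (41.2%) and 7 of 15 (46.7%) knock-in peaks were shared, against 51% and 54.2%. Sharing with overexpressed PSPC1 was thus above the whole-list share at these loci and sharing with UTP6 was below it. The knock-in intervals include the whole-list share in each case, and those of overexpressed PSPC1 lie above it. These intervals too describe counting error alone and treat peaks as independent, which they are not. For example, both overexpressed PSPC1 peaks at Pou5f1 lie in the same knock-in peak. The overexpression list is 1 library, so a difference from the whole-list share was not tested.

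Merged over all lists, the 5 windows held 26 regions: 2 at Pou5f1, 2 at Sox2, 1 at Nanog, 1 at Klf4 and 20 at Esrrb. Of these 26, 7 held peaks of at least 4 lists, where 20.6% of the 67384 regions on all chromosomes did. A count of 7 of 26 is too close to that share to set apart. The 7 comprised the downstream Sox2 region, the Nanog upstream region, the Klf4 region and 4 regions within Esrrb. The knock-in libraries both had a peak in 8 of the 26 regions, 5 of them at Esrrb and 1 each at Pou5f1, Sox2 and Klf4. Of all regions, 15.4% had both. Regions of the same window are not independent, so a difference from that share was not tested. No Nanog region held both. The Sox2 region with both knock-in libraries was the downstream one, not the start.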

How the data were processed

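The authors deposited 1 peak list per library, not pooled, with a position, a MACS peak name and a score for each. No unit is given for the score in the deposited lists, and the caller's version, control and threshold are not given in the sources used here. Per the submitters' processing notes the build was mm9, and CASAVA, Bowtie2 and TopHat were named without a role. The lowest score was 30 in the knock-in lists, against 50 or just above elsewhere, and read depth is unknown. Lists held 6670 to 40217 peaks.

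Windows were those given for the 5 genes, and peaks sharing at least 1 bp were counted, ranked by score within their list and merged across lists. Tiles of 26 kb and 181 kb over chromosomes 1 to 19 and X gave the background. Promoters came from RefSeq, GRCm38.p6, where all 5 genes matched. Alternatives were a minimum score of 50, the best 50% of each list, the 6670 highest peaks of each list, peak midpoints, the gene alone, 10 kb wider windows, stricter sharing, other tiles and leaving out each knock-in library. The procedures were tested on simulated data. No p-value was computed, since 7 of 8 groups have 1 library. All 5 genes are named, with the highest peak per list and locus, and regions in at least 4 lists or in the most lists of a locus. The best PSPC1 peaks within Esrrb were also named after their values were seen. Genes and lists were chosen with earlier results of these data known. Further pluripotency and lineage genes were not located, since no mm9 annotation was used here. Python 3.11.15, numpy 2.4.6, scipy 1.17.1 and matplotlib 3.10.9 were used.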

Additional observations from a re-analysis of the deposited data

How the results depend on the processing

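The count of 69 peaks became 31 with the best 50% of each list and 24 with the 6670 highest peaks of each list, where the pairs of a locus and a list with a peak fell from 25 to 15. Without a knock-in library the peaks numbered 52 to 54 and the pairs 20 to 22. The 64.7% of knock-in replicate 1 peaks shared with replicate 2 became 87.5% (7 of 8) at a minimum score of 50, 29.4% (5 of 17) with a reciprocal overlap of 50%, and 35.3% (6 of 17) with 500 bp around midpoints, so sharing at these loci depends on how it is counted. With the gene alone, without flanks, the Nanog locus had a peak in 0 lists. With 10 kb more on each side, knock-in replicate 2 had a peak at all 5 loci in place of 3. For the 25 pairs with a peak, the 6 settings gave 150 counts of peaks: 92 were within 1.5 times the reported count, 55 fell further (28 of them to 0) and 3 rose further. Only the wider windows could add peaks, and a minimum of 50 could remove peaks from the knock-in lists alone. No paired analysis was possible because no group besides the knock-in has a second library. Read depth and the control library are unknown here, so a missing peak in a window does not show that the protein is absent there.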

Other observations

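A search of 150 kb beyond each window, chosen after the window results had been seen, found 13 further regions with peaks of at least 4 lists: 5 near Nanog, 3 near Pou5f1, 3 near Klf4 and 1 each near Sox2 and Esrrb. On all chromosomes 13849 of 67384 merged regions (20.6%) had that many lists. The density of such regions was not compared, so the 13 cannot be read as many or few. Other genes lie in these stretches, so no region is assigned to the named gene. Downstream of Sox2, where a distal enhancer cluster known as the Sox2 control region lies, chr3:34654547-34657667 at 106 to 109 kb held peaks of knock-in replicate 1 (score 51.09), knock-in replicate 2 (score 267.29, rank 2061 of 22926), overexpressed PSPC1 (score 190.23) and UTP6 (score 91.29). Both knock-in libraries thus had a peak there, although only replicate 1 had one at the Sox2 start. Whether this region is that enhancer was not tested.

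Downstream of Klf4, chr4:55475930-55478483 at 67.5 to 70.1 kb held the peak of overexpressed PSPC1 with a score of 473.83, rank 800 of 22785, above its Klf4 start peak at 223.59. UTP3 and CIRH1A, which had no peak in the Klf4 window, had scores of 126.41 and 94.37 in this region. Both also had peaks in a nearer region just outside the window, at 17.5 to 18.65 kb, with scores of 87.31 and 83.73. Upstream of Pou5f1, chr17:35605572-35608832 at -37.4 to -34.2 kb held peaks of both knock-in libraries, with scores of 243.82 and 474.78, and none of overexpressed PSPC1. UTP6 and UTP3 also had peaks in it, with scores of 114.82 and 69.58. Near Nanog, chr6:122769299-122771770 at 112 to 115 kb held peaks of 6 lists, both knock-in libraries included (scores 118.24 and 197.87), where the Nanog window had no peak of knock-in replicate 2. SAFB2 had a peak in 1 of the 13 regions, upstream of Pou5f1 at -82.4 to -79.7 kb, with a score of 59.36. The share of all such regions that hold a SAFB2 peak was not computed.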
